A study of Caenorhabditis elegans with 2 samples.

Results

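The fbxa and fbxb genes of Caenorhabditis elegans encode F-box proteins, and they were examined here as possible binding targets of the protein F16B12.6. They were taken as all protein-coding genes of the Ensembl WBcel235 annotation whose names begin with fbxa- or fbxb-, which gave 274 of 19973 genes on the 6 nuclear chromosomes. Of these, 170 were fbxa genes and 104 were fbxb genes. An F-box protein is the substrate-binding subunit of an SCF ubiquitin ligase: its F-box docks on a Skp1-related protein (SKR in the worm), which joins it to the cullin CUL-1 and the RING protein RBX-1, and the rest of the protein holds the target that is to be ubiquitinated. The FBXA and FBXB families, each named for the domain that follows the F-box, expanded in nematodes and lie largely in arrays of neighbouring paralogues. The substrates of most of their members are unknown.

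Chromatin immunoprecipitation and sequencing (ChIP-seq) was directed at an eGFP-tagged F16B12.6 in whole L1 larvae, the first larval stage, of both sexes. All animals were of strain OP114, genotype unc-119(tm4063) III; wgIs114, in which the tagged copy comes from the transgene wgIs114. There were 2 biological replicates of this 1 group, and no untagged or mutant group was analysed here. The peak caller was given a control file, per the notes deposited with the lists, but its reads were not analysed here. Whole animals mix all tissues, so a peak present in few cells and a weak peak in all cells cannot be told apart. A gene was called bound when the summit of a thresholded peak lay in its promoter window. That window covered 1000 bp before and 200 bp after the annotated start of the gene, called its 5' end. The thresholded list holds 2183 peaks from the pooled replicates. Relaxed lists of 30000 entries, which include background, exist for the pool and for each replicate.

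A short stretch recurred at the summits of several bound fbxa genes, and its copies are shown first because the same letters stood at 6 of the 14 peaks that reached members. It was present in 7 of the 13 bound fbxa genes. The stretch was noticed after the bound members were known. It consists of GACGACA, any 3 bases and TGCA, and it was searched on both strands. Capitals mark these 14 bases, each copy is written in the direction that begins with GACGACA, with 8 bases on either side, and coordinates are those of WBcel235 (ce11). A run of 17 bases was identical in the first 4 copies.
fbxa-4 (chrII:2415579-2415608, plus strand): aacactgtGACGACAAAATGCAcatcattt
fbxa-24 (chrII:3815611-3815640, minus strand): cccgagttGACGACAAAATGCAcagtttgg
fbxa-64 (chrV:3278420-3278449, minus strand): catgatttGACGACAAAATGCAcagccgtt
fbxa-65 (chrV:3346755-3346784, minus strand): catgatttGACGACAAAATGCAcagctgtc
fbxa-10 (chrIII:952389-952418, plus strand): caaaacgtGACGACACAATGCAcaatatgg
fbxa-67 and fbxa-11 (chrIII:950632-950661, minus strand): catgatttGACGACAAATTGCAgacttgtt

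The middle of each copy lay 9 to 19 bp from the summit of a thresholded peak. The copies at fbxa-64 and fbxa-65 were nearly at the same place, 283 and 285 bp upstream of the 5' end, and on the strand of the gene. The copies at fbxa-10 and fbxa-67 lay 13 and 24 bp downstream of the 5' end, also on the strand of the gene. The copies at fbxa-4, fbxa-24 and fbxa-11 faced the other way, 62, 901 and 223 bp upstream. The summit sequences of some of these genes were related beyond the stretch. Those of fbxa-64 and fbxa-65, which lie 68333 bp apart on chromosome V, aligned over 103 bp at 80.6% identity, and those of fbxa-65 and fbxa-67 over 56 bp at 83.9% identity. These windows are therefore not independent of one another. Likeness also reached windows without a peak. The 250 bp at the upstream fbxa-24 summit matched 13 other member windows over 35 to 51 bp, 11 of which were not bound. Those at the peak of fbxa-76 and fbxa-77 matched the window of fbxa-63 over 119 bp at 73.1% identity. That gene was not bound and had a pooled relaxed entry of signal value 6.19.

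The 3 strongest peaks at members without the stretch are shown by the 100 bases centred on the summit, on the strand of the member. Capitals mark GCAAACAC, which was found in all 3 of them. It was also the most frequent of all 8-base words in the 100 bases around the 2183 thresholded summits.
fbxb-88 (chrII:4828219-4828318, minus strand): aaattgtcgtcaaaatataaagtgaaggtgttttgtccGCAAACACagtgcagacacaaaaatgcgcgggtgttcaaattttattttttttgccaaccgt
fbxa-141 (chrX:14513622-14513721, minus strand): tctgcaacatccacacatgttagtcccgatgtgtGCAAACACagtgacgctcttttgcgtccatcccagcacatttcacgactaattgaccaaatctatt
fbxa-66 (chrIII:2314259-2314358, minus strand): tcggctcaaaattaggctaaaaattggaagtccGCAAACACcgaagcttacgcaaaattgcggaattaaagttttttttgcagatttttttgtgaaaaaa

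The summit sequences of fbxa-64 and fbxa-65 are given at the same length to show how far the match between these genes extends. Capitals mark the recurring stretch.
fbxa-64 (chrV:3278393-3278492, minus strand): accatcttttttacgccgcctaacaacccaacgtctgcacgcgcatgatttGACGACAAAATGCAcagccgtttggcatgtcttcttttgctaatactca
fbxa-65 (chrV:3346728-3346827, minus strand): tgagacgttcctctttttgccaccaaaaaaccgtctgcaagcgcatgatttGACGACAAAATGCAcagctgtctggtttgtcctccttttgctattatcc

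At fbxa-67 and fbxa-10 the summit lay within 13 bp of the 5' end, so part of the sequence around it is 5' UTR. The bases upstream of the UTR and within 50 bp of the summit are given here to complete the strongest peaks. They hold neither GCAAACAC nor the recurring stretch nor ACGCAG, the third word counted further on.
fbxa-67 (chrIII:950671-950706, minus strand): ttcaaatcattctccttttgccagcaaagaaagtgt
fbxa-10 (chrIII:952336-952389, plus strand): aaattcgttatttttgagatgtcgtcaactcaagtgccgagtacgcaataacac

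Few members were bound. A thresholded summit lay in the window of 15 of 274 members (5.47%, 95% Wilson interval 3.35 to 8.83%), against 2341 of 19699 genes outside the families (11.9%). The share over all protein-coding genes was 11.8%. The bound members were 13 of 170 fbxa genes (7.65%, 4.52 to 12.64%) and 2 of 104 fbxb genes (1.92%, 0.529 to 6.74%), so the intervals of the families overlap. The intervals cover counting error only and take genes as independent, which neighbouring paralogues are not. With only the stronger 50% of the thresholded peaks the gap was smaller: 13 of 274 members were bound (4.74%, 2.79 to 7.95%), an interval that includes the 6.83% of all genes bound by that rule. The genes were selected by name with results of these data known, so no test of the list was made. The 2 replicates show 1 condition, and their read depth is unknown here.

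**Figure D1:**
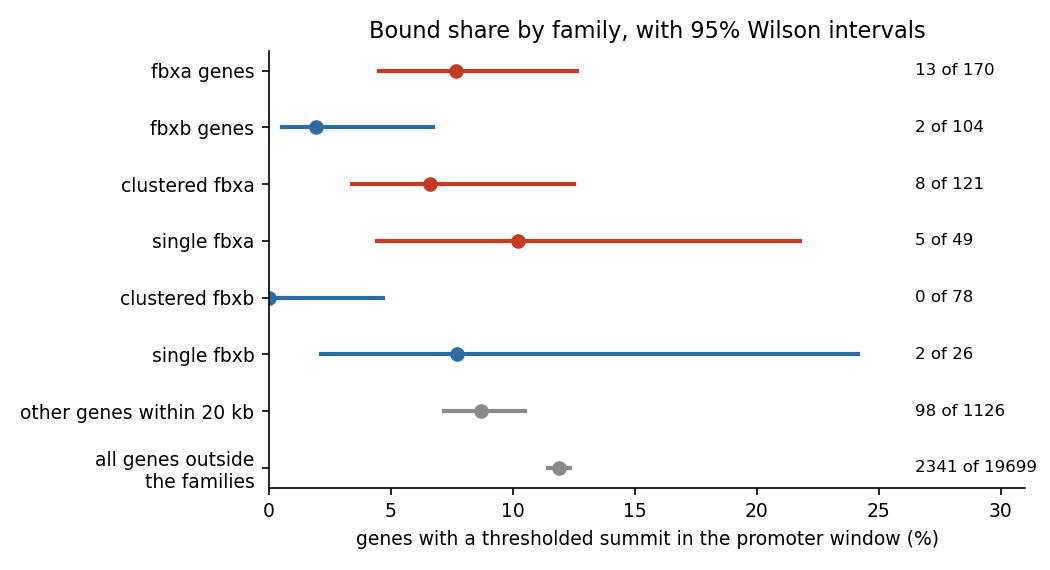
Share of genes with a thresholded summit in the promoter window, in percent, for the fbxa genes (red), the fbxb genes (blue) and genes outside the families (grey), with 95% Wilson intervals as lines and counts at the right. The fbxa share was 7.65%, the fbxb share 1.92%, and the share of genes outside the families 11.9%. No clustered fbxb gene was bound, where clustered means that another member starts within 20 kb.

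The same order, all genes above fbxa above fbxb, held in the relaxed lists. A pooled relaxed summit lay in the windows of 84 members (30.7%), made up of 59 fbxa genes (34.7%) and 25 fbxb genes (24%), against 41% of all genes. Replicate 1 had an entry at 55 fbxa and 26 fbxb genes, against 41.3% of all genes, and replicate 2 at 51 fbxa and 25 fbxb genes, against 40.2%. An entry in all 3 relaxed lists was found for 41 members (14.96%), against 22.9% of all genes. No relaxed entry in any list was found for 151 of the 274 members. When the 2183 strongest entries of each replicate were used in place of the thresholded list, 17 members had a summit in replicate 1, against 11.7% of all genes, and 16 in replicate 2, against 11.3%. A summit among the strongest of both was found for 15 members, against 9.88% of all genes. The 2 fbxb genes were found by each of these rules.

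The peaks at bound members were mostly strong. The signal value is the number that the authors' caller gave to each entry, on a scale that is not stated, and it was used to rank entries within a list. The strongest summit of the 15 bound members had a median signal value of 190 (quartiles 80.1 and 348), against 58.5 (33.8 and 187) for the 2341 bound genes outside the families. The 15 members were reached by 14 distinct peaks, of which 11 ranked in the stronger 50% of the thresholded list. None reached the very top: the highest rank was 130, and signal values in the list went up to 1543.

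The strongest peak at any member lay at an fbxb gene. At fbxb-88 on chromosome II (4826446 to 4827884, minus strand) the summit stood 385 bp upstream of the 5' end, with a pooled signal value of 456 and rank 130. Its entry ranked 114 in replicate 1 (signal value 289) and 156 in replicate 2 (168). The same summit lay 290 bp upstream of tbck-1, a gene for a predicted TBC-domain kinase that starts in the other direction 675 bp away, and was nearer to that gene. The replicates placed the summit within 5 bp of the pooled position.

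The next peak lay between fbxa-67 and fbxa-11, which start 199 bp apart on chromosome III and run in opposite directions. Its summit was 13 bp inside the 5' UTR of fbxa-67 and 212 bp upstream of fbxa-11, so a single peak accounts for both calls. The pooled signal value was 431 and the rank 146, with rank 150 in replicate 1 (261) and rank 168 in replicate 2 (165). The adjoining gene fbxa-10 (952390 to 954102, plus strand) had a peak of its own, 4 bp upstream of its 5' end. That peak had a pooled signal value of 324 and rank 273, with rank 269 in replicate 1 (196) and rank 260 in replicate 2 (132). Replicates and pool thus gave these peaks of chromosome III nearly the same place in their lists.

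At fbxa-141 on chromosome X (14511248 to 14512917, minus strand) the summit was 755 bp upstream and in no other window. The pooled signal value was 371 and the rank 212, with rank 248 in replicate 1 (206) and rank 163 in replicate 2 (166). At fbxa-66 on chromosome III the summit was 274 bp upstream, with a pooled signal value of 290 (rank 321), 174 in replicate 1 (rank 313) and 118 in replicate 2 (rank 305). This summit was nearer, at 127 bp, to the divergent gene iffb-1, which encodes a relative of translation initiation factor eIF5B. The strongest 5 peaks therefore included 2 that another gene's start adjoined more closely.

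The pair fbxa-64 and fbxa-65 on chromosome V, whose summit sequences match, also had peaks at matching places, 292 and 294 bp upstream. At fbxa-64 the pooled signal value was 260 (rank 360), with 157 in replicate 1 (rank 353) and 99.4 in replicate 2 (rank 370). At fbxa-65 it was 190 (rank 442), with 107 in replicate 1 (rank 460) and 80.2 in replicate 2 (rank 430). No other gene's window held either summit, and the 250 bp around each consisted wholly of 32-base words that occur once in the genome.

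The only member with 2 thresholded summits was fbxa-24 on chromosome II. Its stronger summit was 882 bp upstream, with a pooled signal value of 189 (rank 443), 106 in replicate 1 (rank 461) and 80.7 in replicate 2 (rank 425). Its weaker summit was 59 bp upstream, with a pooled signal value of 23.3 (rank 2050), 8.28 in replicate 1 (rank 3682) and 15.3 in replicate 2 (rank 1348). Only 38.4% of the 32-base words around the weaker summit occur once in the genome, against 100% around each of the other 13 peaks at members. The weaker peak was the only one of the 14 outside the strongest 2183 entries of replicate 1, and all 14 were inside those of replicate 2. What repeated sequence contributes to it was not tested.

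The remaining peaks were weaker. At fbxb-85 on chromosome III the summit was 71 bp upstream, with a pooled signal value of 119 (rank 549), 71.1 in replicate 1 (rank 558) and 46.2 in replicate 2 (rank 563). The divergent gene hex-3, for a beta-hexosaminidase, had the same summit 188 bp upstream. A peak between fbxa-76 and fbxa-77, which start 314 bp apart on chromosome III, lay 205 and 109 bp upstream of them. Its pooled signal value was 80.1 (rank 719), with 45.0 in replicate 1 (rank 779) and 35.5 in replicate 2 (rank 664). At fbxa-4 on chromosome II the summit was 51 bp upstream, with a pooled signal value of 42.0 (rank 1226), 23.3 in replicate 1 (rank 1320) and 16.6 in replicate 2 (rank 1247). These 3 peaks kept similar ranks in the replicates.

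The replicates were farther apart at fbxa-90 and fbxa-145. At fbxa-90 on chromosome V the summit was 964 bp upstream, near the window's edge, with a pooled signal value of 60.2 (rank 904), 25.2 in replicate 1 (rank 1235) and 31.2 in replicate 2 (rank 719). It was 175 bp upstream of efl-1, which encodes an E2F-related transcription factor and runs in the other direction. At fbxa-145 on chromosome I the summit was 156 bp upstream, with a pooled signal value of 40.5 (rank 1269), 30.2 in replicate 1 (rank 1066) and 9.42 in replicate 2 (rank 2110). The divergent gene F48C1.6 had this summit 255 bp upstream.

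**Figure D2:**
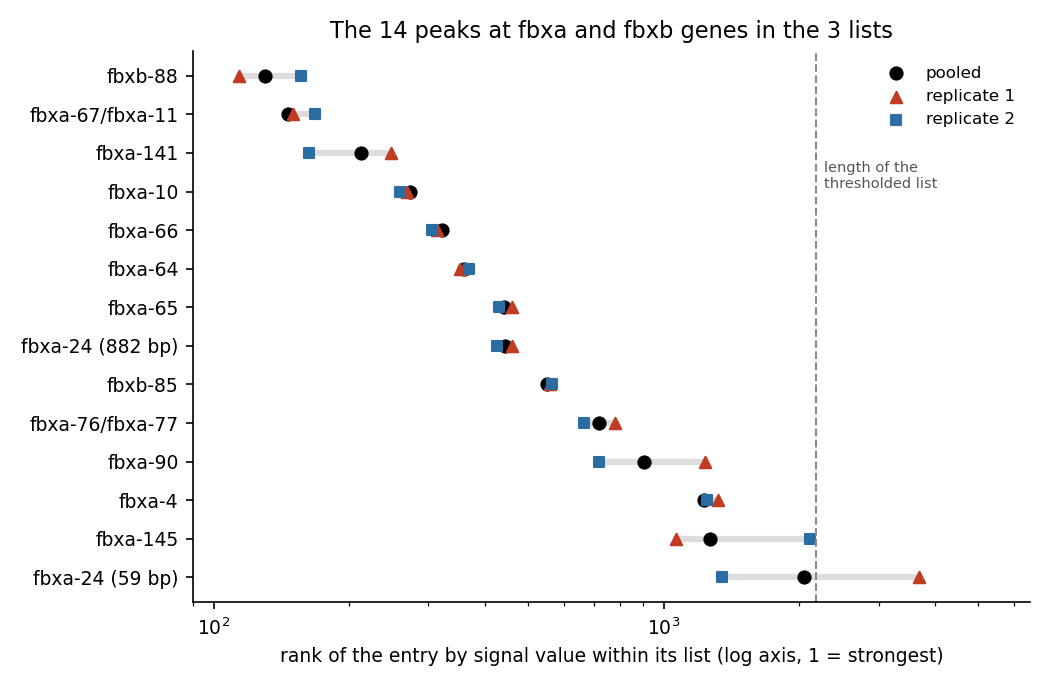
Rank by signal value (log axis, 1 is strongest) of the 14 peaks at members in the pooled list (black circles), replicate 1 (red triangles) and replicate 2 (blue squares), with the distance upstream given for the 2 peaks of fbxa-24. Among the 9 strongest peaks the replicates differed most at fbxa-141 (248 and 163), and they were farther apart at fbxa-145 (1066 and 2110) and the weaker fbxa-24 peak (3682 and 1348).

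Shared promoters accounted for part of the calls. Of the 14 peaks, 5 had their summit also in the window of a gene outside the families (tbck-1, iffb-1, hex-3, efl-1 and F48C1.6), and the member was the nearer gene in 2 of these 5. In 2 further peaks the summit lay in the windows of 2 members. The summit was in member windows only for 10 of the 15 bound members, and in no other gene's window at all for 6 of them, which were fbxa-141, fbxa-10, fbxa-64, fbxa-65, fbxa-24 and fbxa-4. When each summit was given only to the nearest 5' end, 10 members were bound, 1 of them an fbxb gene. Of the 14 summits, 13 were intergenic, and 1 lay in the 5' UTR of fbxa-67.

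Clustered and single members were both mostly without a peak, as were all protein-coding genes, of which 11.8% were bound. Members whose nearest other member started within 20 kb (clustered) were bound in 8 of 199 cases (4.02%, 2.05 to 7.73%), and single members in 7 of 75 (9.33%, 4.59 to 18.0%). Among fbxa genes these counts were 8 of 121 clustered (6.61%, 3.39 to 12.5%) and 5 of 49 single genes (10.2%, 4.44 to 21.8%). Among fbxb genes they were 0 of 78 clustered genes, with a Wilson upper limit of 4.69% (3 counts would be 3.85%), and 2 of 26 single genes (7.69%, 2.14 to 24.1%). The intervals overlap in each pair. The 11.8% of all genes lies inside the intervals of the single members, of both fbxa groups and of the single fbxb genes. It lies above those of all clustered members and of the clustered fbxb genes. Both bound fbxb genes were thus single: fbxb-88 was 763787 bp from the nearest other member, and fbxb-85 was 45557 bp from it. With a limit of 50 kb in place of 20 kb, fbxb-85 counts as clustered.

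Joining members at most 20 kb apart gave 121 groups, 46 of which had 2 or more members, and 5 of these 46 arrays held a bound member. Of the 8 clustered bound members, 6 lay in 3 arrays on chromosome III. The largest, 26 fbxa genes over 110402 bp of chromosome III, had 1 peak, that between fbxa-76 and fbxa-77. The next, 15 fbxa genes on the same chromosome, had fbxa-66 bound. An array of 10 fbxa genes from 936087 to 962269 on chromosome III had 3 bound genes, fbxa-67, fbxa-11 and fbxa-10, the last of which starts 1521 bp from fbxa-11. The fbxb arrays on chromosome II, with 9 fbxb genes each and in 1 of them also an fbxa gene, and that of 8 fbxb genes on chromosome V had none. Outside genes that start within 20 kb of a member were bound in 98 of 1126 cases (8.70%, 7.19 to 10.5%), against 2243 of 18573 farther genes (12.1%, 11.6 to 12.55%), and these intervals do not overlap.

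Below the threshold, signal values at members were close to those at other genes. A pooled relaxed summit without a thresholded one was found for 69 members, whose strongest entry had a median signal value of 6.30 (quartiles 5.45 and 7.89), against 6.51 (5.36 and 8.94) for 5761 genes outside the families. The weakest thresholded peak had a value of 21.7. Nearest to it came fbxa-128 (20.01, rank 2324, 13 bp downstream), which ranked 3931 in replicate 1 and 2006 in replicate 2. Then followed fbxa-150 (19.2, rank 2418), at rank 1579 in replicate 1 and with no entry in replicate 2. The next were fbxa-37 (14.7, rank 3028), fbxa-79 (14.3, rank 3083) and fbxa-167 (13.6, rank 3235). All 5 are fbxa genes, and none was among the strongest 2183 entries of both replicates.

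**Figure D3:**
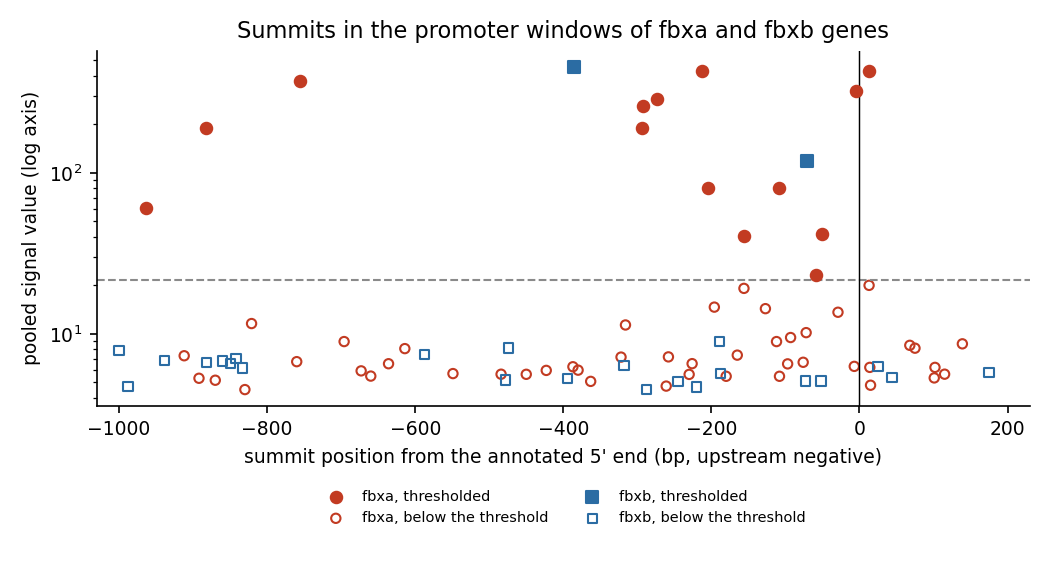
Pooled signal value (log axis) against summit position from the annotated 5' end in bp, for thresholded summits (filled) and the strongest relaxed summit of members below the threshold (open), in fbxa (red circles) and fbxb genes (blue squares). The dashed line marks the weakest thresholded peak, 21.7, and all thresholded summits but the one 13 bp inside fbxa-67 lie upstream of the 5' end.

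Where bound, members had their summits in the usual place. The strongest summit lay at a median of -212 bp from the 5' end, against -217 bp for bound genes outside the families. It lay upstream in 14 of 15 members, against 95.9% of bound genes outside the families, and within 400 bp in 12 of 15, against 76.6%. Annotated 5' ends were used, and many worm transcripts are trans-spliced, so the start of transcription can lie elsewhere.

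Every member window that held the recurring stretch was bound, a count that the way the stretch was chosen limits. The stretch occurred in the windows of 7 of 274 members (2.55%), all of them fbxa genes and all bound. Without it 8 of 267 members were bound (3.00%). Outside the families it occurred in 36 of 19699 windows (0.183%), of which 18 were bound (50%), and without it 11.8% of windows were bound. Some of these 18 had the same signal value as another on the same chromosome, as genes that share a peak do. The 18 are thus a count of windows, not of peaks. The stretch lay in the 100 bases around the summit at 6 of the 14 peaks at members and at 13 of the other 2169 thresholded peaks (0.599%), and in none of 4366 stretches of equal length 200 bp to either side. The letters were set from the 6 peaks at members, so their count is a description and supports nothing. The windows outside the families were not used to set them, but those windows are not free of the families. Among the 18 bound is that of Y22D7AR.2 (signal value 276), which starts 47 bp from fbxa-13, a member not bound, in the other direction. The windows of these 2 genes overlap, but that of fbxa-13 held neither the summit nor a whole copy of the stretch. The summit and the copy in the window of Y22D7AR.2 therefore lay within the fbxa-13 gene itself (1703483 to 1705899 on chromosome III, minus strand). With TGC in place of TGCA, again 7 of 7 member windows were bound, and 47 of 94 windows outside the families (50%). On the 6 nuclear chromosomes there were 130 copies in all, of which 19 (14.6%) lay within 50 bp of a thresholded summit, so most copies had no peak.

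Its first part alone was found in more windows, and outside the families a lower share of them was bound. Among members the bound shares are not compared, because the letters of the whole stretch were set from their peaks. GACGACA occurred in 31 member windows (11.3%), 21 of fbxa and 10 of fbxb genes, and 10 of the 31 were bound, among them both bound fbxb genes. Outside the families it occurred in 1899 windows (9.64%), of which 416 were bound (21.9%). It lay at 150 of 2183 thresholded summits (6.87%) and in 1.15% of the flanking stretches.

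GCAAACAC lay at 5 of the 14 peaks at members, those of fbxb-88, fbxa-141, fbxa-66, fbxa-76 with fbxa-77, and the upstream peak of fbxa-24. It lay at 340 of all 2183 thresholded summits (15.6%) and in 16 of the 4366 flanking stretches (0.366%). In windows it was about as frequent in members, at 20 of 274 (7.30%), as in genes outside the families, at 1210 of 19699 (6.14%). Of the member windows that held it 6 of 20 were bound (30%), and of those outside the families 479 of 1210 (39.6%). ACGCAG, a word that earlier results on these peaks had named, lay at 6 of the 14 peaks at members, against 18.8% of all thresholded summits and 2.38% of flanking stretches. It occurred in 69 member windows (25.2%), of which 11 were bound (15.9%), against 4 of the 205 without it (1.95%). Outside the families 887 of 4701 windows with it were bound (18.9%), and 9.69% of those without. At 13 of the 14 peaks at members at least 1 of the recurring stretch, GCAAACAC and ACGCAG was present, against 721 of all 2183 thresholded peaks (33.0%). The exception was the weaker peak of fbxa-24. The stretch was set from these peaks, and GCAAACAC was picked with them in view. ACGCAG came from earlier results on the same peaks. Nothing is therefore read from the 13 of 14, or from the bound shares of windows with and without ACGCAG. A match of letters is not a binding site, and which of these words the protein recognises was not tested.

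**Figure D4:**
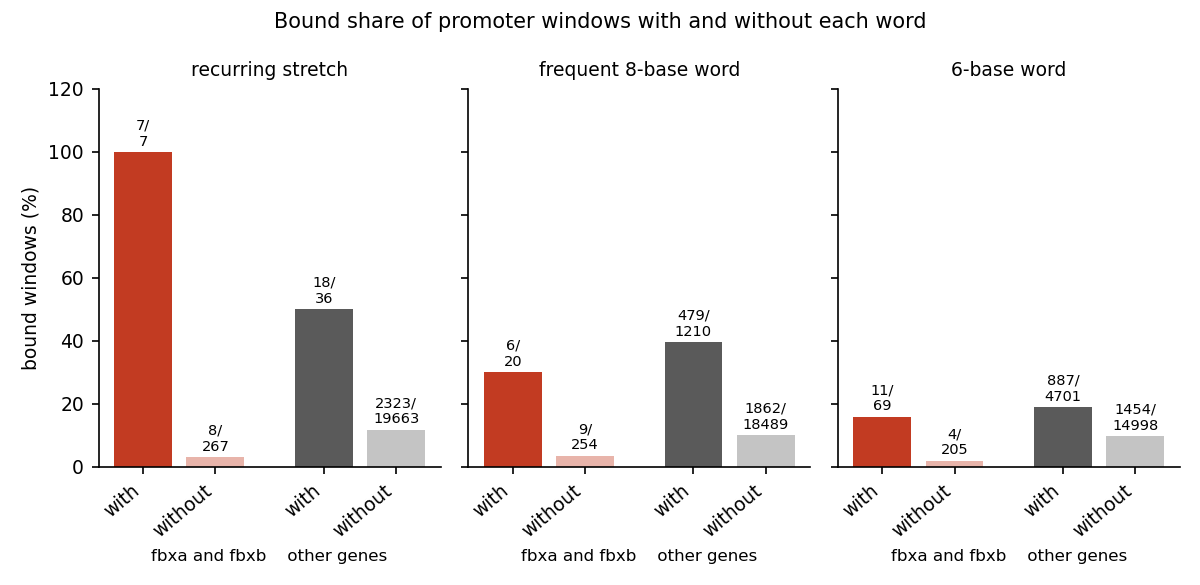
Share of promoter windows with a thresholded summit, in percent, among windows with and without the recurring stretch (GACGACA, 3 bases, TGCA), GCAAACAC (the frequent 8-base word) and ACGCAG (the 6-base word), for fbxa and fbxb genes (red) and other genes (grey), with counts above the bars. All 7 member windows with the stretch were bound, against 18 of 36 windows of other genes, and members without a word had the lowest share in each panel.

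The surroundings of the members differed from those of other genes in several measured respects. Only 14.1% of fbxa and 10.6% of fbxb genes lay in the middle 50% of their chromosome, against 55.9% of other genes. Bound shares were close inside and outside that middle, at 2 of 35 members (5.71%) and 13 of 239 (5.44%), against 12.9% and 10.6% of other genes. The nearest thresholded summit was a median of 40159 bp from a member's 5' end, against 16840 bp for other genes and 27482 bp for other genes within 20 kb of a member. By chromosome, 7 of 68 members on III were bound (10.3%), against 21.7% of other genes there, 3 of 72 on II (4.17%), against 12.2%, and 3 of 87 on V (3.45%), against 6.60%. On I it was 1 of 16 (6.25%), against 18.6%. On X it was 1 of 17 (5.88%), against 6.04%, and on IV it was 0 of 14, where 3 counts would be 21.4%, against 10.7%.

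Bound shares were also counted by promoter arrangement and by uniqueness of sequence, and in both cases the intervals of the compared members overlap. Members with the start of a divergent gene within 1000 bp were bound in 8 of 70 cases (11.4%, 5.91 to 21.0%), and the others in 7 of 204 (3.43%, 1.67 to 6.91%). Among genes outside the families these shares were 35.0% and 6.94%. Such a partner was more common among members, at 25.5%, than among other genes, at 17.6%. Windows made up to at least 90% of 32-base words that occur once in the genome were bound in 14 of 201 members (6.97%, 4.19 to 11.4%), against 12.8% of other genes. Less unique windows were bound in 1 of 73 members (1.37%, 0.242 to 7.36%), that of fbxa-24, against 6.35% of other genes. Of the fbxb windows 70.2% passed this limit, and 75.3% of the fbxa windows, against 86.0% of other genes. Median G and C content was 34.1% in fbxa windows and 37.1% in fbxb windows, against 34.9% in other genes. The part of these features in the low share of bound members was not tested.

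The partners of F-box proteins in the ligase were also looked up, from lists made by symbol. In the SCF core of cul-1, rbx-1 and the skr genes, 3 of 22 genes were bound (13.6%, 4.75 to 33.3%), against 11.8% of all protein-coding genes. These were rbx-1, for the RING subunit (signal value 437, rank 142, 394 bp upstream), and 2 Skp1-related genes, skr-16 (234.7, rank 391) and skr-18 (58.9, rank 924). The cullin gene cul-1 was not bound. Of 57 other named F-box genes 8 were bound (14.04%, 7.29 to 25.3%). They included 5 of 48 fbxc genes (10.4%), with fbxc-23 strongest at 407, and lin-23 and sel-10, for conserved F-box proteins with WD repeats. The BATH, MATH and BTB genes, only some of which encode substrate adaptors of another ligase type, were bound in 6 of 91 cases (6.59%, 3.06 to 13.6%). The cullin genes other than cul-1 were bound in 3 of 5 (60%, 23.1 to 88.2%). The 11.8% of all genes lies inside the intervals of the SCF core, of the 57 other named F-box genes and of the BATH, MATH and BTB genes. It lies below that of the cullin genes. The cullin interval overlaps that of neither family. The others overlap that of the fbxa genes. In the thresholded list, that of the 57 other named F-box genes does not overlap that of the fbxb genes. By the strongest entries of both replicates, 5 of the 57 had a summit (8.77%, 3.81 to 18.9%), against 9.88% of all genes. That interval overlaps that of the fbxb genes by the same rule (0.529 to 6.74%).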

How the data were processed

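ChIP-seq of eGFP-F16B12.6 in L1 larvae was used as peak lists on ce11. Per the notes deposited with the files, the relaxed lists were made per replicate and for the pool with a control, and the thresholded list (optimal irreproducible discovery rate peaks) from all of these. The deposited signal value of each entry is the authors'; the sources used here state neither its scaling, nor the caller and its version, nor the read depth. Summits (start plus offset) were placed in promoter windows from Ensembl release 115 of WBcel235, and sequences come from that assembly. Words were counted in the 100 bases at summits and in windows. Summit sequences of 250 bp were compared with member windows by BLAST 2.17.0 (blastn, word size 7, E value up to 1e-05). Other values were computed with Python 3.11.15, NumPy 2.4.6 and pandas 2.3.3, after a check of the window code on simulated data. Members and lists were chosen with earlier results of these data known. Genes named were the bound members, outside genes that share their summits, the 5 strongest members below the threshold and bound genes of the SCF list; lin-23, sel-10, fbxc-23, the sequences beyond the 5 strongest bound members, the recurring stretch and GCAAACAC were picked with their values in view. Other windows, nearest-gene assignment, stronger peaks, single replicates and cluster distances were tried. Proteins were not analysed here.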

Additional observations from a re-analysis of the deposited data

How the results depend on the processing

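The count of bound members stayed between 10 and 19, against 15, over the 11 alternatives tried, and that of fbxa genes between 9 and 15. In 1 of the 11, which kept only the 84 members with a pooled relaxed summit, the count could not change. Every bound gene has such a summit, so only the share differed there. Counts that moved by more than 1.5 times were few. With windows of 2000 bp upstream, 4 fbxb genes were bound and 9 bound members shared a summit with an outside gene. With each summit given to the nearest 5' end, 1 fbxb gene and 4 clustered members were bound, and by construction 0 summits were shared. With the stronger 50% of the thresholded list, 1365 of all genes were bound (6.83%) and 13 members (4.74%), so the ratio of the share of all genes to that of members was 1.44, against 2.15 in the main count; over the other alternatives it was 1.61 to 2.24. With 50 kb between 5' ends, 4 single members of 48 were bound. Using the strongest entries of 1 replicate alone gave 16 to 17 bound members, 14 to 15 fbxa genes, 2 fbxb genes in both cases, 8 to 9 clustered and 8 single members, 5 to 6 members with a shared summit, 2257 to 2330 genes in all and median positions of -204 to -191 bp. The full relaxed lists of single replicates had an entry at 76 to 81 members. No paired analysis was possible because there is only 1 group. The counts of 2 fbxb genes and of 7 windows with the recurring stretch are small, the peak lists give no depth, and windows of related genes share sequence, so intervals on shares understate the uncertainty.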
